A study of Homo sapiens with 18 samples.

Results

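The transcripts of MHC class I molecules and of the machinery that loads them with peptide were followed in a human monocytic leukaemia line, THP-1, after knockdown of 1 of a pair of nuclear receptors. The genes were the rows of the count tables whose Ensembl identifier carries 1 of 9 symbols in GENCODE 29, namely HLA-B, HLA-C, HLA-E, HLA-F, HLA-G, B2M, TAP1, TAP2 and TAPBP, 9 of 57500 genes in all. The 3 stable THP-1 lines compared were kept under puromycin according to the methods of the study. One carried a non-targeting hairpin (shNT), another a hairpin to NR4A2 (shNR4A2) and the last a hairpin to NR4A3 (shNR4A3). Cells of every line were collected unstimulated (control) or after bacterial lipopolysaccharide (LPS) at 2.5 μg/ml for 2 h, with 3 libraries a group and 18 in all. The study describes the libraries of a group as independent experiments, while the labels give only their numbers. The hairpin and the line cannot be told apart, since each hairpin is represented by 1 line. Between 16171161 and 23929138 reads per library were assigned to genes, with a median of 19639071.

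Class I molecules carry short peptides from inside the cell to its surface, where CD8 T cells read them, and are found on nearly all nucleated cells. A polymorphic heavy chain pairs with the invariant light chain, β2-microglobulin. Peptides cut by the proteasome are pumped into the endoplasmic reticulum by the TAP transporter, a heterodimer of TAP1 and TAP2, and tapasin holds the empty molecule at the transporter until a peptide fits. In myeloid cells these genes are known to respond to interferons and to NF-κB, the factor that LPS activates through TLR4.

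The knockdowns were checked first. Levels are given as TPM (the count per base of the deposited gene length, scaled to the same total in each library), as mean ± SD of n = 3 libraries. NR4A2 was at 3.69 ± 0.743 TPM in shNT and 1.95 ± 0.402 TPM in shNR4A2 control cells, and at 62.7 ± 11.7 and 21.2 ± 6.78 TPM with LPS. NR4A3 was at 0.587 ± 0.0940 TPM in shNT and 0.0990 ± 0.0636 TPM, on 9 reads, in shNR4A3 control cells, and at 31.7 ± 0.708 and 17.3 ± 0.807 TPM with LPS. Each targeted transcript was lower in its own line in both states. Fold changes between groups come from edgeR's quasi-likelihood test on the counts, with p-values adjusted by Benjamini-Hochberg over all genes tested, and a gene was called when its adjusted p was under 0.05. On that scale NR4A2 fell by 0.91 (adjusted p = 0.0359) and 1.52 (adjusted p = 0.00265) in log2 in shNR4A2 cells without and with LPS, and NR4A3 fell by 2.47 (adjusted p = 0.00767) and 0.82 (adjusted p = 0.000556) in shNR4A3 cells.

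All of the genes but B2M, which is on chromosome 15, lie in the MHC on chromosome 6 (GRCh38, as in the count tables). HLA-F spans chr6:29722775-29738528 and HLA-G chr6:29826967-29831125 on the plus strand, HLA-E chr6:30489467-30494205 also on the plus strand, and HLA-C chr6:31268749-31272130 and HLA-B chr6:31353872-31357188 on the minus strand. TAP2 (chr6:32821833-32838780) and TAP1 (chr6:32845209-32853978) are neighbours on the minus strand, followed by TAPBP at chr6:33299694-33314387, and B2M lies at chr15:44711477-44718877 on the plus strand. Exonic bases of 5 genes are shared with other annotated genes, namely 18% of HLA-B, 28.5% of HLA-F, 25.8% of HLA-G, 9.96% of TAP1 and 32.3% of TAP2. The partners of HLA-B, HLA-F, HLA-G and TAP1 lie on the opposite strand, and that of TAP2, AL669918.1 (2064 bases), on the same strand. The strand setting of the counting is not given in the sources used here. Reads of HLA-B, HLA-F, HLA-G or TAP1 and of an antisense partner therefore cannot be told apart there. AL669918.1 had 8 reads over the 3 shNT control libraries and 6 over the 3 of shNR4A2. HLA-F shares exonic bases with 3 antisense genes. HLA-F-AS1 (535 bases) had 39 reads over the 3 shNT control libraries and 52 over the 3 of shNR4A2, against 39 and 262 for HLA-F. AL645939.1 (701 bases) had 0 reads in shNT in both states, 1 in shNR4A2 control and 10 in shNR4A2 LPS libraries, and 0 and 3 in shNR4A3, so its few reads were also more in shNR4A2, and RPL23AP1 (257 bases) had 0 in all 18 libraries. Their part in the HLA-F values was not tested. The 5 heavy chain genes are also close copies of each other, and how reads that fit several of them were treated is not given either, so their single values are uncertain and their summed reads were tested as 1 row beside them.

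The sequences just upstream of these genes are shown because NF-κB and interferon response motifs there are the known entry points of both signals. The 250 bases before each RefSeq start were read for 8 of the genes (GRCh38.p14), with 3 starts for HLA-G, 2 for TAP1 and 1 for each of the others, 11 windows in all, and positions are counted back from the base before that start. In the first group of sequences, 30 bases at the same positions, from −190 onwards, are shown for 4 heavy chain genes. They run 5′ to 3′ on the strand of the gene, and for HLA-G lie before the start whose window aligns with the others. The NF-κB consensus is in capitals where it was found. The HLA-G match lies before the bases gcgtt, whereas those of HLA-B and HLA-C lie after them, so it is not at their aligned site.
HLA-B, chr6:31357340-31357369 (minus): gaggcgcagcgttGGGGATTCCCCactccc
HLA-C, chr6:31272253-31272282 (minus): tggggaggcgccgcgttgGGGATTCTCCac
HLA-G, chr6:29827635-29827664 (plus): ggtgtatgggttgGGGAGGCCCCgcgttgg
HLA-F, chr6:29723244-29723273 (plus): ggctcagtattgagaattccccatctcccc

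HLA-F had no NF-κB match in its 250 bases but had an interferon-stimulated response element (searched as GAAANNGAA on both strands) at −155 to −147, as did TAP2 at −58 to −50. B2M held overlapping response elements and an NF-κB match within 49 bases, and TAP1 and TAPBP an NF-κB match each, beside overlapping response elements that are not shown. Capitals mark these matches in the second group.
HLA-F, chr6:29723269-29723297 (plus): tccccagagtTTCTCTTTCtctcccaacc
B2M, chr15:44711363-44711411 (plus): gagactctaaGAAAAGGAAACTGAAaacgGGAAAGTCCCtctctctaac
TAP1, chr6:32853757-32853786 (minus): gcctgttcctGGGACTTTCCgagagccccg
TAPBP, chr6:33314115-33314144 (minus): taaccagagcGGGGATTTCCaccgcccctc
TAP2, chr6:32838779-32838807 (minus): ctggggaagcGAAAGCGAAagctgcccga

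The NF-κB consensus was found in 6 of these 11 windows and the response element in 5, each in a different gene, where 9.95% and 6.89% of all 34788 RefSeq windows of the same length hold them. HLA-B and HLA-C hold TTTCACTTC a few bases past their NF-κB match, letters that the response element pattern does not cover. A gene without a match may thus still hold an element. The Y box (CCAAT), part of the class I promoter module, was found in 6, against 32% of all windows. The NR4A monomer site searched as AAAGGTCA was found in none, against 1.04% of all windows, and the X2 box searched as TGACGNNA in none, against 6.53%. HLA-B and HLA-C hold TGACGCGT, which differs from that X2 pattern in its last base alone. The gamma-activated site searched as TTCNNNGAA was found at TAP1 alone, before the other of its annotated starts, against 6.57%. These matches describe letters in a window and say nothing of binding in these cells. Over the aligned 250 bases, HLA-B was 89% identical to HLA-C and 79.8% to HLA-F, and HLA-G was 78.6% identical to HLA-C in the window shown and 41.4% and 42.6% before its other starts.

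In unstimulated shNT cells the 9 transcripts spanned a wide range of levels. B2M was at 474.8 ± 13.1 TPM and HLA-B, a classical heavy chain, at 410.6 ± 45.2 TPM. HLA-C, the other classical heavy chain measured, followed at 265.3 ± 21.2 TPM. HLA-E, whose protein presents leader peptides of other class I chains to NK receptors, was at 181.2 ± 18.9 TPM and TAPBP (tapasin) at 180.9 ± 23.0 TPM. The ranges of these last transcripts overlapped, whereas every other pair of neighbours in the order was separated in all libraries. TAP1 was at 37.5 ± 4.25 TPM, TAP2 at 18.5 TPM (18.1 to 18.8 over its 3 libraries) and HLA-G, a non-classical chain best known from the placenta, at 7.54 ± 0.585 TPM. HLA-F, a non-classical chain that can reach the surface without peptide, was at 0.570 ± 0.115 TPM, which rested on 16, 13 and 10 reads. HLA-B made up 47.4% of the summed heavy chain TPM of these 5 genes, HLA-C 30.7%, HLA-E 20.9%, HLA-G 0.873% and HLA-F 0.0655%. In both states of the shNR4A2 line HLA-B stood above B2M in every library, whereas the ranges of the pair overlapped in shNR4A3 cells and in shNT cells with LPS. TAP1, TAP2, HLA-G and HLA-F followed each other in this order, without overlap, in all 6 groups.

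**Figure D1:**
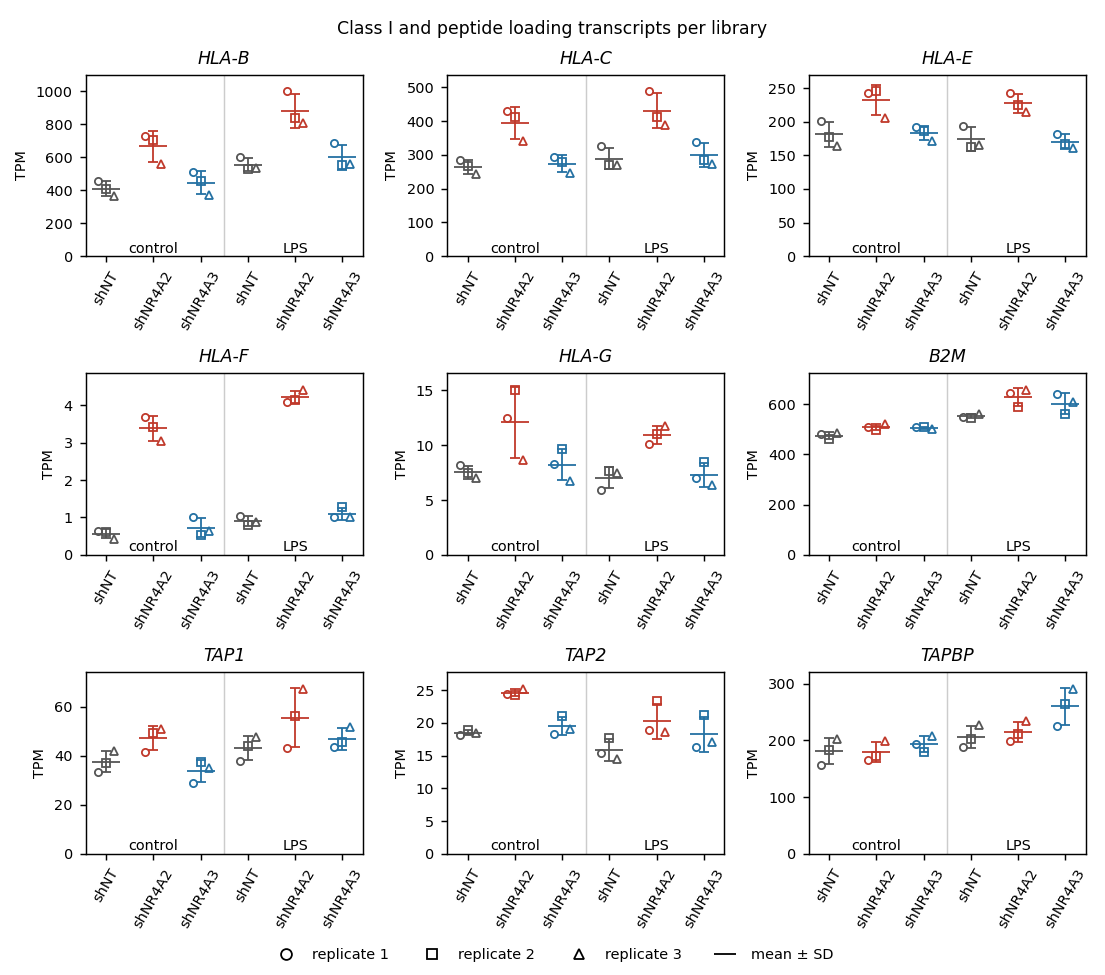
TPM of the 9 transcripts in each of the 18 libraries, by line and LPS, with symbols for the replicate number and lines for the mean ± SD of 3 libraries (linear axes from 0). The HLA-F panel shows the shNR4A2 libraries at 3.03 to 4.41 TPM and all others at or below 1.28 TPM.

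The first comparison asked how the class I transcripts differed in cells depleted of NR4A2. In unstimulated cells 4 of the 9 genes were called, all higher in shNR4A2, namely HLA-F, HLA-B, HLA-C and TAP2, where 3.63% of the 15800 genes tested were called higher. With LPS the same 4 genes and HLA-E were called higher, 5 of 9, where 4.31% of 15590 genes were. The median log2 fold change of the 9 was 0.41 without and 0.44 with LPS, against -0.00103 and -0.00136 over all genes tested. In TPM, 7 of the 9 had all 3 shNR4A2 libraries above all 3 shNT libraries in both states (HLA-B, HLA-C, HLA-E, HLA-F, HLA-G, B2M and TAP2), where 13.7% of genes without and 10.8% with LPS had. An exact permutation test of 3 against 3 libraries cannot go below p = 0.1, which each of these reached. HLA-B, HLA-C and HLA-F are genes that the study picked out on these samples, so their direction is not independent evidence. In bulk RNA a higher level in each cell and a larger share of cells with the transcript cannot be told apart.

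HLA-F showed the widest separation of the 9. Its TPM was 0.647, 0.623 and 0.438 in the shNT control libraries and 3.69, 3.43 and 3.03 in those of shNR4A2. With LPS it was 1.04, 0.788 and 0.889 in shNT and 4.10, 4.14 and 4.41 in shNR4A2. The lowest shNR4A2 library stood above the highest shNT library by a wide margin in both states. The ratio of the means was 5.94 without and 4.65 with LPS, and the log2 fold change was 2.56 ± 0.26 (SE, adjusted p = 0.000258, edgeR) and 2.26 ± 0.22 (adjusted p = 0.0007). It is the 1 gene among the 9 whose change exceeded 2-fold, and it remained called whichever library was left out. HLA-F-AS1 differed by a log2 of 0.25 ± 0.36 (adjusted p = 0.755) and 0.61 ± 0.42 (adjusted p = 0.436) between the same libraries.

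The classical heavy chains moved less in proportion and from a far higher level. HLA-B was at 457.0, 407.9 and 366.7 TPM in shNT control and 732.2, 705.2 and 560.5 TPM in shNR4A2 control libraries. With LPS it was at 601.2, 528.1 and 534.9 TPM in shNT and 1002, 836.6 and 809.5 TPM in shNR4A2. In all 4 of these groups the library numbered 1 was the highest. The shNR4A2 libraries were above those of shNT in both states, by a log2 of 0.70 ± 0.13 (adjusted p = 0.00936, edgeR) and 0.73 ± 0.12 (adjusted p = 0.00966). The call with LPS was lost without shNT replicate 2 (adjusted p = 0.0542).

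HLA-C was at 285.3, 267.4 and 243.1 TPM in shNT control and 430.7, 412.7 and 342.1 TPM in shNR4A2 control libraries. With LPS the values were 325.7, 270.9 and 269.9 TPM in shNT and 489.3, 413.4 and 389.7 TPM in shNR4A2. No library of one line reached the range of the other. The log2 fold change was 0.58 ± 0.12 (adjusted p = 0.0156, edgeR) without LPS, and 0.64 ± 0.13 (adjusted p = 0.0209) with LPS. Without LPS the call for HLA-C was lost without shNT replicate 3 (adjusted p = 0.0786) or shNR4A2 replicate 1 (adjusted p = 0.0584). With LPS it was lost without shNT replicate 2 (adjusted p = 0.0994), shNT replicate 3 (adjusted p = 0.0821) or shNR4A2 replicate 1 (adjusted p = 0.0506).

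Among the other non-classical chains, HLA-E was at 201.7, 177.6 and 164.4 TPM in shNT control and 243.5, 245.7 and 206.3 TPM in shNR4A2 control libraries, a log2 difference of 0.36 ± 0.12 that was not called (adjusted p = 0.105, edgeR) but passed without the filter on low counts (adjusted p = 0.0432). With LPS it was at 194.3, 162.3 and 165.7 TPM in shNT and 242.3, 224.4 and 215.2 TPM in shNR4A2, and rose by a log2 of 0.44 ± 0.11 (adjusted p = 0.0438). This call was lost when any library but shNR4A2 replicate 2 was left out, with adjusted p up to 0.194. HLA-G rested on 60 to 143 reads per library in these lines. It was at 8.17, 7.44 and 7.01 TPM in shNT control and 12.5, 15.0 and 8.68 TPM in shNR4A2 control libraries, with log2 differences of 0.68 ± 0.23 (adjusted p = 0.106) without LPS and 0.70 ± 0.18 (adjusted p = 0.0514) with it. Neither passed the test. The value of HLA-G in control cells did without shNR4A2 replicate 3, the lowest of its group (adjusted p = 0.029), without the filter on low counts (adjusted p = 0.0437) and in the fit of all 18 libraries (adjusted p = 0.0451), and that with LPS did with DESeq2 (adjusted p = 0.0473) and all 18 libraries (adjusted p = 0.0342). The summed reads of the 5 heavy chain genes, which reads exchanged among them cannot alter, were higher by a log2 of 0.60 ± 0.13 (adjusted p = 0.0158) without and 0.66 ± 0.12 (adjusted p = 0.0143) with LPS. Their summed level was 865.2 ± 85.7 TPM in shNT and 1308 ± 164 TPM in shNR4A2 control cells. These calls on the sum were lost without shNT control replicate 3 (adjusted p = 0.0734) or shNR4A2 control replicate 1 (adjusted p = 0.0567), and with LPS without shNT replicate 2 (adjusted p = 0.0745) or 3 (adjusted p = 0.0604).

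The light chain and the loading machinery were divided. B2M was at 481.8, 459.7 and 483.0 TPM in shNT control and 509.6, 496.7 and 521.3 TPM in shNR4A2 control libraries. The difference was small, a log2 of 0.10 ± 0.08 (adjusted p = 0.534, edgeR), and was 0.25 ± 0.10 (adjusted p = 0.188) with LPS. With LPS it passed without shNR4A2 replicate 2 (adjusted p = 0.0498). TAPBP, whose product bridges the empty molecule to the transporter, was at 157.2, 182.3 and 203.1 TPM in shNT control and 166.3, 173.2 and 199.4 TPM in shNR4A2 control libraries. These ranges lay on top of each other, and the log2 difference was -0.01 ± 0.11 (adjusted p = 0.98).

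The transporter subunits differed in their calls but little in size. TAP2 was at 18.1, 18.8 and 18.5 TPM in shNT control and 24.4, 24.2 and 25.2 TPM in shNR4A2 control libraries, a tight and separated pair of groups. It rose by a log2 of 0.41 ± 0.10 (adjusted p = 0.0332, edgeR) without LPS and 0.41 ± 0.10 (adjusted p = 0.0438) with it. The call in control cells held in 1 of 6 fits that left out a library (without shNR4A2 replicate 2, adjusted p = 0.0355), with adjusted p up to 0.159. With LPS it held in none of the 6, with adjusted p from 0.0558 to 0.162, nor with library totals (adjusted p = 0.0915) or without the filter on low counts (adjusted p = 0.0557). TAP1 was at 33.5, 37.1 and 42.0 TPM in shNT control and 41.5, 49.1 and 50.8 TPM in shNR4A2 control libraries, so that the ranges touched. Its log2 differences were 0.33 ± 0.12 (adjusted p = 0.118) and 0.42 ± 0.16 (adjusted p = 0.15), the latter passing without the filter on low counts (adjusted p = 0.0198). PSMB8-AS1 shares 456 exonic bases with TAP1 on the opposite strand. It was at 23.7 ± 1.1 TPM in shNT and 32.2 ± 6.91 TPM in shNR4A2 control cells, and at 16.4 ± 1.45 and 19.2 ± 3.52 TPM with LPS. The part of PSMB8-AS1 in the TAP1 values was not tested. A difference between TAP1 and TAP2 in their response was not tested.

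**Figure D2:**
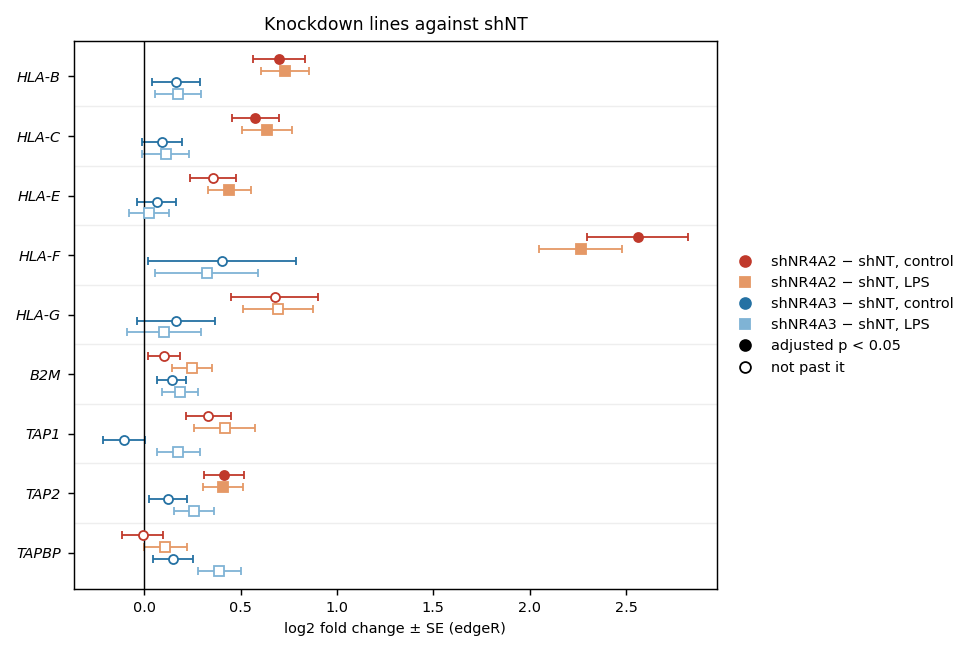
Log2 fold change ± SE (edgeR) of the 9 genes against shNT in shNR4A2 (red circles without LPS, orange squares with LPS) and shNR4A3 (dark blue circles without LPS, light blue squares with LPS), filled where the adjusted p was under 0.05. HLA-F stands at 2.56 and 2.26 in shNR4A2, whereas no gene is filled for shNR4A3.

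Libraries with the same replicate number deviated together in all pairs of lines, so the number was also fitted as a block. With the block, 7 of 9 genes were called higher in shNR4A2 control cells (HLA-E, adjusted p = 0.00102, HLA-G, adjusted p = 0.0134, and TAP1, adjusted p = 0.00348, joining the 4), where 12.1% of all genes were. With LPS, 8 of 9 were called higher, all but TAPBP, where 15.2% were. There HLA-G had an adjusted p of 0.00183, TAP1 of 2.17e-05 and B2M of 0.0112. The block thus added calls among the 9 genes as it did over all genes.

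The same question was asked of NR4A3, against the same shNT libraries. None of the 9 genes was called in shNR4A3 against shNT in either state by edgeR, where 3.91% of 15322 genes were called higher without and 3.99% of 15578 with LPS. At an unadjusted p under 0.05 there were 0 of the 9 without LPS, where 20.9% of all genes were, and 2 with LPS, where 23% were. DESeq2 called 0 without LPS, where it called 4.26% of genes higher, and 1 with LPS, where it called 5.15%. HLA-F was at 1.01, 0.521 and 0.642 TPM in shNR4A3 control and 1.02, 1.28 and 1.00 TPM in shNR4A3 LPS libraries. These overlapped the shNT values, and the log2 differences were 0.41 ± 0.38 (adjusted p = 0.608) and 0.33 ± 0.27 (adjusted p = 0.507). HLA-B was at 509.3, 455.2 and 373.6 TPM in the shNR4A3 control libraries, with log2 differences from shNT of 0.17 ± 0.12 (adjusted p = 0.496) and 0.17 ± 0.12 (adjusted p = 0.419). The summed heavy chain reads differed by 0.13 ± 0.11 (adjusted p = 0.584) and 0.13 ± 0.12 (adjusted p = 0.532).

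TAPBP came nearest to a call in shNR4A3 cells. With LPS it was at 225.8, 264.0 and 291.4 TPM in shNR4A3 and 188.4, 203.2 and 227.6 TPM in shNT, and in each line the library numbered 1 was the lowest and that numbered 3 the highest. The log2 difference was 0.39 ± 0.11 (adjusted p = 0.0666, edgeR). It passed with DESeq2 (adjusted p = 0.0268), without the filter on low counts (adjusted p = 0.00399), in a fit of all 18 libraries (adjusted p = 0.0439), without shNR4A3 replicate 2 (adjusted p = 0.0481) and with the replicate block (adjusted p = 0.000256). Under the block TAP2 also passed, at 0.26 (adjusted p = 0.0255), so that 2 of 9 genes were called where 12.3% were called higher. Without LPS the block called none of the 9, where 8.09% of all genes were called higher. Without LPS TAPBP differed by 0.15 ± 0.10 (adjusted p = 0.456).

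A gene called in one knockdown line and not in the other is not thereby shown to differ between them, so the lines were also compared directly. HLA-F was higher in shNR4A2 than in shNR4A3, by a log2 of 2.15 ± 0.29 (adjusted p = 0.00116, edgeR) without LPS and 1.94 ± 0.20 (adjusted p = 0.00292) with it. HLA-C was called without LPS, at 0.49 ± 0.12 (adjusted p = 0.048), and its adjusted p was 0.101 with LPS. Thus 2 of 9 genes were called higher without LPS, where 1.94% of 15584 genes were, and 1 with LPS, where 1.27% of 15539 were. HLA-B differed by 0.53 ± 0.14 (adjusted p = 0.0616) and 0.56 ± 0.15 (adjusted p = 0.0972), and passed in control cells without shNR4A2 replicate 3 (adjusted p = 0.0202), with DESeq2 (adjusted p = 0.0131), with library totals (adjusted p = 0.0357) and without the filter on low counts (adjusted p = 0.000115). The HLA-C call was lost in 5 of 6 fits that left out a library, with adjusted p up to 0.238, and held without shNR4A2 replicate 3. It was also lost with RLE scaling (adjusted p = 0.053) and in the fit of all 18 libraries (adjusted p = 0.0576). TAP1, at 0.44 ± 0.12 (adjusted p = 0.0805) in control cells, passed with DESeq2 (adjusted p = 0.0416) and without the filter (adjusted p = 0.0332). With LPS, HLA-B, HLA-C and HLA-E each passed with DESeq2 (adjusted p = 0.0182, 0.0268 and 0.0392), without the filter (adjusted p = 2.65e-05, 0.000273 and 0.0121) and with all 18 libraries (adjusted p = 0.037, 0.0299 and 0.0428).

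With the replicate block more genes separated the knockdown lines. In control cells 6 of 9 were called higher in shNR4A2 (HLA-B, HLA-C, HLA-E, HLA-F, TAP1 and TAP2), where 6.04% of all genes were. With LPS 6 were called higher (the 5 heavy chains and TAP1), where 11.8% were, and TAPBP was called lower in shNR4A2, at -0.28 (adjusted p = 0.0018). The heavy chain sum differed by 0.48 ± 0.13 (adjusted p = 0.0664) and 0.53 ± 0.14 (adjusted p = 0.0963) without the block, and passed in both states with it (adjusted p = 0.000445 and 6.99e-06).

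LPS for 2 h was compared with control in each line. HLA-B, B2M, TAP1 and TAPBP were called higher in all 3 lines, and HLA-C in shNT and shNR4A3 cells. That makes 5 of 9 in shNT, where 11.6% of 15711 genes were called higher, 4 in shNR4A2, where 9.23% of 15772 were, and 5 in shNR4A3, where 13.1% of 15342 were. None was called lower. These fits use TMM normalization. Scaled to library totals instead, the median of all genes tested fell by 0.19 in shNT, 0.23 in shNR4A2 and 0.21 in shNR4A3 in log2, and the median TPM ratio shifted alike, so the changes here are relative to most genes and look smaller in TPM.

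HLA-B rose from 410.6 ± 45.2 to 554.7 ± 40.4 TPM in shNT, from 666.0 ± 92.3 to 882.7 ± 104 TPM in shNR4A2 and from 446.0 ± 68.3 to 599.4 ± 75.8 TPM in shNR4A3 cells. The LPS libraries were above the control libraries of the same line in every case. The log2 changes lay close together, at 0.65 ± 0.10 (adjusted p = 0.000351, edgeR), 0.68 ± 0.15 (adjusted p = 0.00686) and 0.66 ± 0.14 (adjusted p = 0.00506). HLA-C rose by 0.34 ± 0.10 (adjusted p = 0.0277) in shNT and 0.36 ± 0.12 (adjusted p = 0.0452) in shNR4A3, and the 0.39 ± 0.14 in shNR4A2 was not called (adjusted p = 0.0752). In shNR4A2 the block called HLA-C (adjusted p = 0.0131) and HLA-F (0.59, adjusted p = 0.0261) too, 6 genes in all, where 13.8% of all genes were called higher, and HLA-C also passed without shNR4A2 LPS replicate 2 (adjusted p = 0.0425). The call for HLA-C was lost without shNT control replicate 2 (adjusted p = 0.0527) or 3 (adjusted p = 0.113) or shNT LPS replicate 1 (adjusted p = 0.111), and in shNR4A3 in 4 of 6 such fits, with adjusted p up to 0.174. HLA-E and HLA-G gave log2 values of 0.05 to 0.24, none of them called, and their mean TPM was lower with LPS in each line. HLA-F gave 0.88 ± 0.34 (adjusted p = 0.0702), 0.59 ± 0.20 (adjusted p = 0.0586) and 0.80 ± 0.34 (adjusted p = 0.0989) in the order shNT, shNR4A2 and shNR4A3, the last passing without shNR4A3 control replicate 1 (adjusted p = 0.0475). The fit of all 18 libraries called HLA-F in the 3 lines (adjusted p = 0.0308, 0.0353 and 0.0333) and HLA-C in shNR4A2 (adjusted p = 0.0387) but not in shNT (adjusted p = 0.0951) or shNR4A3 (adjusted p = 0.0631), and with library totals HLA-C was called in none of the 3 lines.

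B2M went from 481.8, 459.7 and 483.0 TPM to 550.2, 544.4 and 561.1 TPM in shNT cells, tight groups well apart. The log2 change was 0.44 ± 0.08 (adjusted p = 0.000707, edgeR) in shNT, 0.58 ± 0.12 (adjusted p = 0.00441) in shNR4A2 and 0.48 ± 0.10 (adjusted p = 0.00353) in shNR4A3. Of the transporter subunits TAP1 rose and TAP2 was not called in any line. TAP1 rose by 0.43 ± 0.11 (adjusted p = 0.0109), 0.51 ± 0.16 (adjusted p = 0.0405) and 0.71 ± 0.11 (adjusted p = 0.000677), and TAP2 gave -0.01 ± 0.10, -0.02 ± 0.12 and 0.13 ± 0.10 in the same order of lines. In TPM the 3 LPS libraries of TAP2 were below the 3 control libraries in shNT and shNR4A2, and its mean was also lower in shNR4A3, where the direction thus depended on the scaling. The TAP1 call was lost in shNT without control replicate 1 (adjusted p = 0.0573) or LPS replicate 3 (adjusted p = 0.0537), and in shNR4A2 in 4 of 6 such fits, with adjusted p up to 0.172. TAPBP rose by 0.41 ± 0.10 (adjusted p = 0.00886), 0.53 ± 0.12 (adjusted p = 0.00851) and 0.65 ± 0.11 (adjusted p = 0.00103). Scaled to library totals, HLA-B and B2M kept their calls in the 3 lines and TAP1 and TAPBP in shNR4A3 alone.

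**Figure D3:**
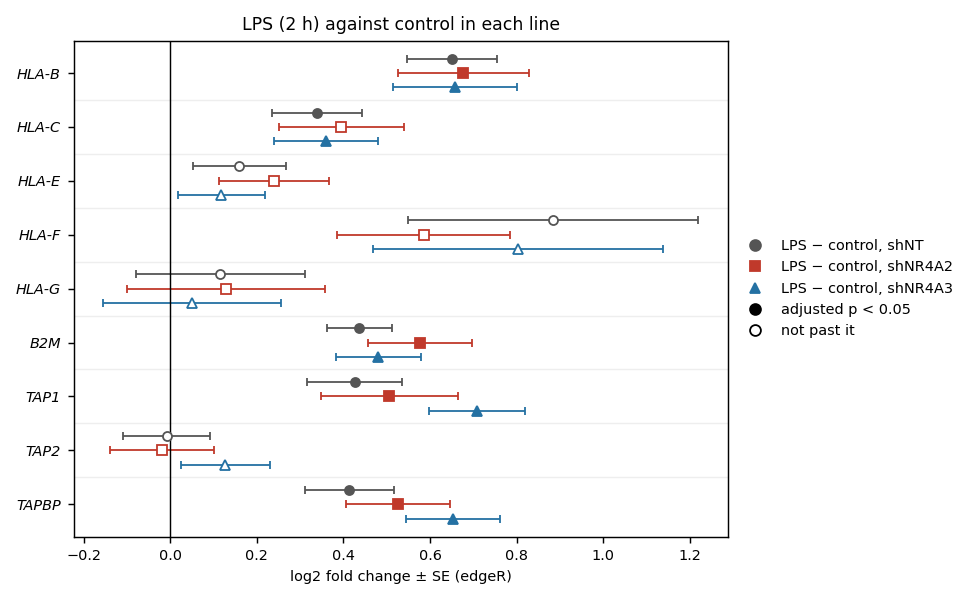
Log2 fold change ± SE (edgeR, TMM) of the 9 genes with LPS against control in shNT (grey circles), shNR4A2 (red squares) and shNR4A3 (blue triangles), filled where the adjusted p was under 0.05. HLA-B sits at 0.65 to 0.68 in all 3 lines, and TAP2 at -0.02 to 0.13.

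Whether LPS acted differently between lines was tested as an interaction over 12 libraries. In this fit no gene at all was called by edgeR (0% of 16674, 16428 and 16447 genes). These are for shNR4A2 against shNT, shNR4A3 against shNT and shNR4A2 against shNR4A3, with 365, 824 and 396 genes at an unadjusted p under 0.05. DESeq2 called 2, 8 and 1 genes in the same order. Without the filter on low counts edgeR called 29, 138 and 29, and with the replicate block 8, 22 and 0. None of these calls was among the 9. The estimates for the 9 genes ran from -0.29 (HLA-F) to 0.15 (B2M) for shNR4A2 against shNT and from -0.08 (HLA-F) to 0.28 (TAP1) for shNR4A3 against shNT. None of the 9 had an unadjusted p under 0.05 in any of the 3, the smallest being 0.104 for TAP1 in shNR4A3 against shNT.

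Other genes of the pathway were taken as lists by role, 44 genes in 7 lists, 9 class I pseudogenes being kept apart. In shNR4A2 against shNT control cells 3 of the 36 tested were called higher and 1 lower, where 3.63% of all genes were called higher and 2.82% lower, and with LPS 5 of 37 higher and 1 lower, where 4.31% and 2.65% were. In shNR4A3 the counts were 2 higher and 1 lower of 36 without LPS, where 3.91% and 3.32% of all genes were, and 4 higher and 0 lower of 36 with LPS, where 3.99% and 2.46% were. With LPS against control, 5 of 35 were called higher and 3 lower in shNT, where 11.6% and 13.3% of all genes were. The counts were 5 and 4 of 37 in shNR4A2, where 9.23% and 10.1% were, and 8 and 6 of 37 in shNR4A3, where 13.1% and 15% were. The 6 genes of chaperones and quality control that fold class I, CALR and PDIA3 among them, had no call in any pairwise comparison. Their median log2 change was 0.08 and 0.11 in shNR4A2, without and with LPS.

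ERAP1, the peptidase that trims peptides in the endoplasmic reticulum, moved against the heavy chains. It was at 38.4 ± 2.54 TPM in shNT and 16.1 ± 2.10 TPM in shNR4A2 control cells, and at 33.7 ± 3.05 and 14.8 ± 1.31 TPM with LPS. The shNR4A2 libraries, 17.8 TPM at most, lay below all libraries of the other lines, 30.9 TPM at least. ERAP1 fell by 1.25 ± 0.11 (adjusted p = 9.51e-05, edgeR) and 1.13 ± 0.09 (adjusted p = 0.000262) in log2. In shNR4A3 the differences were -0.01 ± 0.10 (adjusted p = 0.962) and 0.16 ± 0.08 (adjusted p = 0.242). Between the knockdown lines ERAP1 was lower in shNR4A2 by a log2 fold change of -1.24 ± 0.13 (adjusted p = 0.000168) and -1.29 ± 0.08 (adjusted p = 0.000218). ERAP2, the other peptidase of the list, was called in none of these comparisons.

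Of 5 immunoproteasome and activator genes, PSMB9, an interferon-inducible catalytic subunit encoded next to TAP1, rose in shNR4A2 by 0.56 ± 0.11 (adjusted p = 0.0133, edgeR) without and 0.51 ± 0.09 (adjusted p = 0.0126) with LPS. Its level went from 26.9 ± 1.22 to 39.7 ± 3.47 TPM in control cells. The call was lost without shNT control replicate 2 (adjusted p = 0.0557) or 3 (adjusted p = 0.07), and with LPS without any 1 of the shNT libraries, with adjusted p up to 0.0706. PSMB9 differed from shNR4A3 with LPS, by 0.59 ± 0.10 (adjusted p = 0.0285), a call that was lost whichever library was left out. PSME2, a subunit of the proteasome activator, rose in shNR4A3 by 0.41 ± 0.08 (adjusted p = 0.00901) and 0.40 ± 0.08 (adjusted p = 0.0196), and in shNR4A2 with LPS by 0.41 ± 0.09 (adjusted p = 0.0327). Both calls of PSME2 with LPS were lost in most fits that left out a library, with adjusted p up to 0.145 in shNR4A2 and 0.0955 in shNR4A3. PSMB8 and PSMB10, the other catalytic subunits, and PSME1 were not called in the 6 comparisons between lines.

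Of 8 class I receptors, 4 passed the filter on low counts in control cells. LILRB1, an inhibitory receptor that binds many class I molecules, was at 1.39 ± 0.262 TPM in shNT, between 5.71 and 6.14 TPM in shNR4A2 and 3.17 ± 0.793 TPM in shNR4A3 control cells. It rose by 2.10 ± 0.20 (adjusted p = 0.000161, edgeR) and 1.69 ± 0.29 (adjusted p = 0.01) in shNR4A2, and by 1.24 ± 0.26 (adjusted p = 0.0115) and 1.03 ± 0.25 (adjusted p = 0.0424) in shNR4A3. In shNR4A2 with LPS the call was lost without shNT replicate 2 (adjusted p = 0.0518), in shNR4A3 control cells without shNR4A3 replicate 1 (adjusted p = 0.0503), and in shNR4A3 with LPS without any 1 of the 6 libraries, with DESeq2 (adjusted p = 0.0599) or with library totals (adjusted p = 0.0522). The knockdown lines differed in control cells by 0.86 ± 0.21 (adjusted p = 0.0427), a call lost in 5 of 6 such fits. LILRA1, an activating relative, rose in shNR4A2 control cells by 1.56 ± 0.24 (adjusted p = 0.00313). KIR2DL4, a receptor described for HLA-G, rose in shNR4A2 with LPS by 1.72 ± 0.43 (adjusted p = 0.0449) on 62 reads against 21, and lost that call in 5 of 6 fits that left out a library and with DESeq2 (adjusted p = 0.0506). LILRB1 fell with LPS in shNR4A2 (-0.96 ± 0.22, adjusted p = 0.00943) and shNR4A3 (-0.75 ± 0.26, adjusted p = 0.0483), the latter call being lost in 5 of 6 such fits, with DESeq2 (adjusted p = 0.0789) and with RLE scaling (adjusted p = 0.0539).

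Of 14 regulators of class I transcription, none was called in either line without LPS. Of all genes, 3.63% were called higher and 2.82% lower there in shNR4A2, and 3.91% and 3.32% in shNR4A3. With LPS, IRF1, an interferon response factor, rose by 0.53 ± 0.08 (adjusted p = 0.00517, edgeR) in shNR4A3 and 0.37 ± 0.09 (adjusted p = 0.0438) in shNR4A2. The IRF1 call in shNR4A2 was lost whichever library was left out, without the filter (adjusted p = 0.0625), with library totals (adjusted p = 0.0901) and with all 18 libraries (adjusted p = 0.0937). NLRC5, the class I transactivator, gave 0.43 ± 0.12 (adjusted p = 0.0649) and 0.37 ± 0.11 (adjusted p = 0.0852) in shNR4A2 and 0.24 ± 0.12 (adjusted p = 0.254) and 0.36 ± 0.11 (adjusted p = 0.0828) in shNR4A3. RFX5, a subunit of the factor that binds the class I promoter, gave -0.17 ± 0.10 (adjusted p = 0.338) and -0.26 ± 0.08 (adjusted p = 0.0871) in shNR4A2. With LPS against control, 4 of the 14 were called higher and 1 lower in shNT, where 11.6% and 13.3% of all genes were. The counts were 3 and 0 in shNR4A2, where 9.23% and 10.1% were, and 6 and 2 in shNR4A3, where 13.1% and 15% were. RFX5 rose by 0.66 to 0.76 and NFKB1 by 3.20 to 3.71 in the 3 lines. In mean TPM RFXAP fell from 13.34 to 8.415 in shNT, 13.5 to 7.421 in shNR4A2 and 14.01 to 5.996 in shNR4A3. Among inducing cytokines TNF fell in shNR4A3 control cells (-1.02 ± 0.21, adjusted p = 0.0097), a call lost without shNT replicate 2 (adjusted p = 0.0547). It was higher in shNR4A2 than in shNR4A3 control cells (1.17 ± 0.24, adjusted p = 0.0208), lost without shNR4A3 replicate 1 (adjusted p = 0.0688). CD1D, a class I-like molecule that presents lipids, was lower in shNR4A2 than in shNR4A3 control cells (-0.59 ± 0.13, adjusted p = 0.033), a call lost in 4 of 6 fits that left out a library. With LPS against control CD1D was called lower in each line, and no such fit lost that call. Its mean went from 133.2 to 64.1 TPM in shNT, 118.1 to 55.3 TPM in shNR4A2 and 171.4 to 70.5 TPM in shNR4A3. HLA-H, a class I pseudogene that shares much sequence with the heavy chains, rose in shNR4A2 with LPS by 0.71 ± 0.16 (adjusted p = 0.0278) and lost the call in 5 of 6 such fits.

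**Figure D4:**
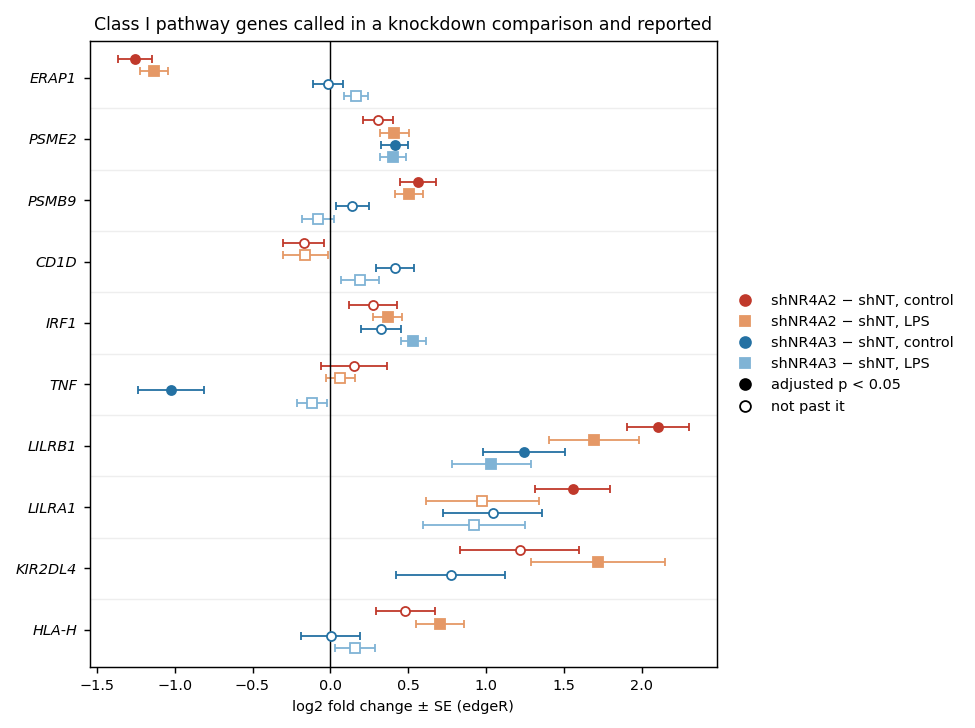
Log2 fold change ± SE (edgeR) of the pathway genes named in the text for a call in at least 1 comparison between lines, against shNT in shNR4A2 (red circles without LPS, orange squares with LPS) and shNR4A3 (dark blue circles without LPS, light blue squares with LPS), filled where the adjusted p was under 0.05. ERAP1 lies at -1.25 and -1.13 in shNR4A2 and near 0 in shNR4A3, whereas LILRB1 is above 1 in both lines.

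All 8 monocytic markers had reads in every library. In control cells 3 of the 8 were called higher in shNR4A2, where 3.63% of all genes were, and 5 in shNR4A3, where 3.91% were, and with LPS 2 and 4 were, where 4.31% and 3.99% of all genes were, with none called lower in these comparisons. Their summed level was 995 to 1119 TPM in shNT control, 1533 to 1793 TPM in shNR4A2 control and 1777 to 2251 TPM in shNR4A3 control libraries, and higher in both knockdown lines with LPS too. SPI1 was the most abundant of them in most libraries and LYZ in the others. LYZ rose by 1.68 ± 0.14 (adjusted p = 6.22e-05, edgeR) in shNR4A2 and 2.25 ± 0.14 (adjusted p = 6.72e-07) in shNR4A3 control cells. CSF1R rose by 0.77 ± 0.13 (adjusted p = 0.00495) and 1.02 ± 0.12 (adjusted p = 0.000205), and CD14 by 1.15 ± 0.25 (adjusted p = 0.0188) and 0.87 ± 0.25 (adjusted p = 0.0488). SPI1 gave 0.20 ± 0.11 (adjusted p = 0.326) and rose by 0.37 ± 0.10 (adjusted p = 0.0411), and ITGAM gave 0.59 ± 0.18 (adjusted p = 0.0784) and rose by 0.80 ± 0.18 (adjusted p = 0.0146). CD33, FCGR1A and MPO were not called in either line, at 0.11, 0.22 and -0.29 in shNR4A2 and -0.04, -0.01 and 0.12 in shNR4A3. The part of these markers in the class I differences was not tested. Of 8 markers of other cells, between 4 and 8 had a read in a library. Their sum was 210.6 to 267.3 TPM in shNT and 306.4 to 332.6 TPM in shNR4A2 control libraries, nearly all of it PECAM1, which monocytes also express (173.6 ± 27.9 and 268.6 ± 19.6 TPM), and NKG7 (54.5 ± 2.71 and 46.1 ± 7.19 TPM). The T cell marker CD3E had 1 and 4 reads, the B cell marker MS4A1 0 and 2 and the red cell gene HBB 0 and 2 over the 3 libraries of these groups.

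Across the 18 libraries, which share the 6 groups and the replicate numbers, HLA-B, HLA-C and HLA-E varied together. Pearson's r of log2 CPM was 0.97 between HLA-B and HLA-C, 0.97 between HLA-C and HLA-E and 0.90 between HLA-C and HLA-F. B2M and TAPBP, which rose with LPS in all lines, had 0.84 with each other and 0.47 and 0.19 with HLA-F. Outside the 9 genes, the closest patterns to HLA-F among 16935 genes were those of TBL1X (r = 0.946), SERPING1 (0.944), which encodes the C1 inhibitor, and PDE9A (0.936). Those closest to B2M were LITAF (0.986), TAB2 (0.981) and the proteasome subunit PSMB1 (0.981), and to TAPBP ARID5B (0.963), VDAC1 (0.944) and ANP32A (0.943). TAP1 was most like AHCYL1 (0.947), BAIAP2L1 (0.933) and MIR137HG (0.924), and HLA-B was close to TAGLN2 (0.965) and RTF2 (0.956). These values describe likeness over the 18 libraries and carry no test.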

How the data were processed

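RNA-seq of 18 THP-1 libraries was analysed from the whole-number read counts per Ensembl gene that the authors deposited, without normalization, with gene positions (GRCh38) and lengths. The submitters' processing notes list Trimmomatic 0.36, STAR 2.5.2b, featureCounts and Subread 1.5.2, and the libraries were polyadenylated and read from both ends. Strand and multi-mapping settings were not given in the sources used here. Symbols came from GENCODE 29 (56898 of 57500 genes). No libraries held identical counts. The labels number the replicates, which the study describes as independent experiments.

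The tables were fitted whole with edgeR 4.0.16 (R 4.3.3), with filterByExpr, TMM and the quasi-likelihood F test, each pair of groups on its 6 libraries and interactions on 12, with Benjamini-Hochberg adjustment over all genes tested. Errors beside log2 values are SEs from the fit. Counting limits the precision of genes of few reads, HLA-F above all. Alternatives were DESeq2 1.42.0, RLE, library totals, no filter, a replicate block, 1 fit of all libraries, a 2-fold limit, and each library left out. The replicate numbers were taken to pair libraries where libraries of the same number had correlated deviations (above 0.1 in each of the 3), which held in all comparisons but LPS in shNT (0.0598 at the lowest) and the interactions with shNT.

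The 9 genes, the lists by role and the tests were chosen with earlier results of these data known. Named list genes are those called in a comparison between lines, at most 6 per list, and the 3 genes most correlated with HLA-B, HLA-F, B2M, TAP1 and TAPBP. Some genes that this rule names are not reported here. Promoter windows are from RefSeq.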

Additional observations from a re-analysis of the deposited data

How the results depend on the processing

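No value that was called changed sign under any alternative run. Of LPS values that were not called, library totals turned the sign of HLA-G in shNT (-0.06), shNR4A2 (-0.08) and shNR4A3 (-0.15), of HLA-E in shNT (-0.01) and shNR4A3 (-0.08) and of TAP2 in shNR4A3 (-0.07). Libraries with the same number deviated together in all comparisons between lines and in LPS against control in shNR4A2 and shNR4A3, though no label says what a number marks. With the replicate block, genes called among the 9 went from 4 to 7 (shNR4A2 against shNT, control), 5 to 8 (the same, LPS), 0 to 2 (shNR4A3 against shNT, LPS), 2 to 6 and 1 to 7 (shNR4A2 against shNR4A3, control and LPS), and for LPS in shNR4A2 from 4 to 6. The block also moved the heavy chain sum between the knockdown lines past the threshold (0.47, adjusted p = 0.000445, and 0.53, adjusted p = 6.99e-06).

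In shNR4A2 against shNT, DESeq2, RLE, library totals, no filter and all 18 libraries called 4, 4, 4, 6 and 5 of the 9 without LPS, where 4.39%, 3.67%, 3.8%, 2.31% and 4.28% of all genes were called higher, and 6, 5, 4, 5 and 6 with it, where 4.98%, 4.34%, 3.52%, 2.87% and 5.76% were. Of the 9, a 2-fold limit left 1 gene, HLA-F, in shNR4A2 against shNT without and with LPS. Of all genes, 244 of 15800 and 305 of 15590 were called higher there at that limit. It also left HLA-F in shNR4A2 against shNR4A3 without LPS (168 of 15584 genes called higher) and with LPS (105 of 15539). For LPS against control it left 0 in shNT (694 of 15711 genes called higher), shNR4A2 (830 of 15772) and shNR4A3 (946 of 15342). In shNR4A3 against shNT with LPS, DESeq2, no filter and all 18 libraries together called 1 gene each, where 5.15%, 2.68% and 4.16% of all genes were called higher. Between the knockdown lines in control cells DESeq2 and no filter called 4, where 2.27% and 1.39% were, and RLE and all 18 libraries 1, where 1.9% and 2.24% were. With LPS, DESeq2, no filter and all 18 libraries called 4, where 2.35%, 1.57% and 3.33% were. Library totals left 2 genes called for LPS in shNT and 2 in shNR4A2, where 7.06% and 6.4% were, and all 18 libraries called 5, 6 and 5 for LPS in shNT, shNR4A2 and shNR4A3, where 9.91%, 13.3% and 13.1% were. The heavy chain sum between the knockdown lines passed in control cells with DESeq2 (0.47, adjusted p = 0.0183), library totals (0.51, adjusted p = 0.0338) and no filter (0.49, adjusted p = 0.00055), and with LPS with DESeq2 (0.53, adjusted p = 0.0195), no filter (0.54, adjusted p = 4.22e-05) and all 18 libraries (0.53, adjusted p = 0.0307). With library totals the LPS change of the heavy chain sum was no longer past the threshold in shNR4A2 (0.31, adjusted p = 0.0762) and shNR4A3 (0.27, adjusted p = 0.0728). The causes were not tested.

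With 1 library left out at a time, 2 to 4 of the 9 genes were called in shNR4A2 against shNT control cells, where 1.84% to 3.72% of all genes were called higher, 1 to 5 with LPS (1.41% to 5.6%), 0 to 1 in shNR4A3 with LPS (1.47% to 6.51%) and 1 to 3 between the knockdown lines in control cells (0.904% to 1.65%). The heavy chain sum ranged from 0.50 to 0.71 in shNR4A2 against shNT control cells, 0.53 to 0.74 with LPS, 0.39 to 0.59 between the knockdown lines in control cells, 0.40 to 0.62 for LPS in shNR4A2 and 0.35 to 0.58 for LPS in shNR4A3. The LPS call on this sum was lost in 2 of 6 such fits in shNR4A2 (edgeR, adjusted p up to 0.0978). In shNR4A3 it was lost in 3 of 6 (adjusted p up to 0.0769). A fit that left out 1 library kept 2 in that group. With 3 libraries a group and few reads of HLA-F in shNT cells, counting and replicate spread limit small differences.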
